A study of Homo sapiens with 8 samples.

Results

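The microRNAs described here are those of the miR-320 family, miR-484 and 2 mirtrons, a set named for hairpins that reach the microRNA pool without the nuclear enzyme Drosha. They were chosen by name, as the entries for miR-320a to miR-320e, miR-484, miR-877, miR-1224, miR-1225 and miR-1226, and 8 of the 2867 entries of the deposited table matched. These were miR-320a-3p, miR-320b, miR-320c, miR-320d, miR-320e, miR-484, miR-877-3p and miR-1226-3p, while no entry matched miR-1224 or miR-1225. HEK293, an established cell line that grew out of human embryonic kidney, was the source of all libraries, which fall into 2 groups harvested at 48 h. The ASO group (4 libraries) had been transfected with 100 nM of an antisense oligonucleotide, a short synthetic nucleic acid that pairs with a chosen RNA, and the library names give miR-31 as its target. The NoASO group (4 libraries) received no oligonucleotide, and neither an unrelated oligonucleotide nor mock transfection is mentioned in the labels. The stated purpose was to look for effects of the oligonucleotide on small RNAs other than its target.

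Most microRNA hairpins are cut out of long primary transcripts by the Microprocessor, made of Drosha and its partner DGCR8, after which Dicer removes the loop in the cytoplasm and an Argonaute protein keeps a single arm. The hairpins of miR-320a and miR-484 are known to start at a transcription start, so that the transcript itself is a capped hairpin short enough for Dicer. The paralogues miR-320b to miR-320e are in the set by name, and how they are cut was not measured here. Mirtrons are whole short introns that fold into a hairpin once the splicing machinery has released and debranched them. The set is given here beside hairpins that Drosha cuts.

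The mature sequences show which members can stand in for each other at a target and which can be confused in counting. They are from RefSeq (GRCh38.p14), read 5′ to 3′, with the seed (bases 2 to 8, the part that pairs with targets) in capitals. Sequences matched 7 of the 8 members, all but miR-320a-3p.
miR-320b: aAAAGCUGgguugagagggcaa
miR-320c: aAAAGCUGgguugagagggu
miR-320d: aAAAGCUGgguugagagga
miR-320e: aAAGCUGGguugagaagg
miR-484: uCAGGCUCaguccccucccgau
miR-877-3p: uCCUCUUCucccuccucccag
miR-1226-3p: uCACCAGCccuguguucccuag
The authors' table gives entry lengths that differ from RefSeq for 5 of the 7. These are 24 bases against 22 for miR-320b, 18 against 19 for miR-320d, 22 against 18 for miR-320e, 22 against 21 for miR-877-3p and 23 against 22 for miR-1226-3p, so the sequence counted may differ from the one printed. miR-320b, miR-320c and miR-320d carry the seed AAAGCUG. miR-320e starts 1 base further in, so its seed is shifted to AAGCUGG. miR-320b and miR-320c are alike over their first 19 bases, and miR-320d matches either over its first 18. From the second base of miR-320b, miR-320e matches it over 15 bases. How reads shared by such near-identical entries were assigned is not given in the sources used here, so the split of counts among the miR-320 entries is uncertain. miR-484, miR-877-3p and miR-1226-3p each have a seed of their own within the set. Outside the set, miR-4429 shares the seed of miR-320b and was above 0 in 4 of 8 libraries, with at most 13 counts. miR-3155b shares the seed of miR-484 and had at most 9 counts, against at least 14006 for miR-484.

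The 2 mirtron hairpins are printed whole because their ends are splice sites, with the RefSeq mature arm in capitals.
MIR877: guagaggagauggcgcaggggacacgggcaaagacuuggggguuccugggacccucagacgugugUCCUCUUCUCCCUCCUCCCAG
MIR1226: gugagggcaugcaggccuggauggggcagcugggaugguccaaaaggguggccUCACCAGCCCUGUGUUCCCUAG
Both begin with GU and end with AG, the letters of an intron's donor and acceptor ends, as did 2.3% of the 1562 RefSeq hairpins searched. MIR877 lies on chromosome 6, 30584332 to 30584417 (GRCh38, plus strand), and fills a whole annotated intron of ABCF1, which encodes a translation factor of the ABC protein family. MIR1226 lies on chromosome 3, 47849555 to 47849629 (plus strand), and fills a whole intron of DHX30, an RNA helicase gene. In both, the RefSeq 3p arm, the arm with an entry in the table, runs to the last base of the intron. miR-877-3p has pyrimidines at 19 of its 21 bases (90.5%). Of the 471 tested known microRNAs with a sequence, 0.212% reach that share, which is the 1 entry of miR-877-3p itself. miR-1226-3p and miR-484 have 68.2% pyrimidines, a share reached by 14.0% of the 471. miR-320b stands at the other end with 22.7%, and 99.2% of the 471 have at least as much.

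MIR484 lies on chromosome 16, 15643294 to 15643372 (plus strand), and begins 27 bases from the annotated start of NDE1, a gene for a centrosome and dynein adaptor, within an exon and its untranslated region. The mature miR-484 takes bases 8 to 29 of the hairpin, its 5′ arm. MIR320A lies on chromosome 8, 22244966 to 22245037 (minus strand), and the opposite-strand gene POLR3D, a subunit gene of RNA polymerase III, starts 67 bases away. The paralogues sit elsewhere, with MIR320B1 at 3991 bases and MIR320D2 at 76360 bases from the nearest coding gene. MIR320B2 lies within NVL on chromosome 1 and MIR320E within PRKD2 on chromosome 19, both on their host's strand, while MIR320C1 and MIR320C2 on chromosome 18 run against the strand of ABHD3 and OSBPL1A. MIR320B1 on chromosome 1, MIR320D1 on chromosome 13 and MIR320D2 on chromosome X lie outside annotated coding genes. In the paralogues the counted arm begins at base 41 to 44 of the hairpin, on the 3′ side. miR-320b, miR-320c and miR-320d are each made from a pair of loci, so their counts cannot be assigned to a locus.

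Total counts ran from 8168828 to 11677123 per library, and levels below are CPM, counts divided by the TMM-scaled total of the 745 entries tested. Before scaling that total was 8145811 to 11651206 per library, and the TMM factors ran from 0.964 to 1.023. A 0 in this table is not always a low level: of the 366 known microRNAs that reached 100 counts in some library, 31 (8.47%) were listed at 0 in another. miR-103a-3p, for example, had 131770 and 166935 counts in ASO libraries 1 and 3 and was listed at 0 in the other 6. The entry miR-103a-1-3p held the same counts in ASO libraries 1 and 3, and 77793 to 213495 counts in the other 6. The microRNA was thus listed in all libraries, under 1 name or another. miR-19a-3p had 2143 counts in ASO library 3 and was listed at 0 in the other 7. A 0 is therefore given here as listed at 0, with no limit attached. The 8 members held 0.497% to 0.615% of all counts in ASO libraries and 0.402% to 0.577% in NoASO libraries, so the ranges overlap. By mean level, miR-320a-3p ranked 54 and miR-484 ranked 60 among 903 known microRNAs, and miR-320b ranked 130, miR-877-3p 148, miR-1226-3p 195 and miR-320c 213. These are ranks of counts for RNAs of like length, and ligation and PCR do not capture all small RNA sequences equally. No list of microRNAs that define HEK293 was used, so the cell label was checked only through markers of other cell types. Of the 15 names in that list 10 had an entry, with a summed level of 3309 to 3684 CPM in ASO libraries and 3614 to 3991 CPM in NoASO libraries. Most of it was miR-9-5p, a microRNA known from neural progenitors, at 3339 ± 175 CPM in ASO and 3585 ± 157 CPM in NoASO libraries (SD, n = 4). Next came miR-143-3p, of smooth muscle, at 94.1 ± 6.44 CPM in ASO and 100.2 ± 12.8 CPM in NoASO libraries, and miR-486-5p, of red blood cells, at 82.1 ± 8.19 CPM in ASO and 83.1 ± 1.91 CPM in NoASO libraries. The other listed smooth muscle microRNA, miR-145-5p, averaged 5.35 ± 1.02 CPM in ASO and 4.83 ± 1.14 CPM in NoASO libraries. Another blood cell microRNA, miR-142-3p, had 4 counts in 1 library and was listed at 0 in the other 7. miR-150-5p, also of blood cells, was above 0 in 2 libraries, with at most 7 counts. No entry was found for miR-451a, miR-144-3p, miR-223-3p and miR-142-5p, listed for blood cells, or for miR-124-3p, listed for neurons. miR-122-5p, of liver, averaged 29.7 ± 7.34 CPM in ASO and 12.1 ± 2.02 CPM in NoASO libraries (log2 fold change 1.30, SE 0.20, adjusted p = 0.0516, edgeR), and its part in the members' values was not tested. In bulk RNA, fewer cells with a microRNA and less of it per cell cannot be told apart.

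Of the 8 members, 7 passed the filter on low counts, which asks for a count above 0 in at least 4 libraries and a mean of at least 10 counts. None of the 7 was called higher or lower at an adjusted p under 0.05 in edgeR's quasi-likelihood test over all 745 entries, where 0.134% of entries (1 entry) were called. None had an unadjusted p under 0.05, against 10.5% of all entries tested, and DESeq2 called none of them either. The miR-320d entry passed the filter through 4 libraries alone and is treated apart. Of the other 6 members, 5 had a fold above 1, where 51.7% of all 745 entries and 56.6% of the 539 known ones did. Their median log2 fold change was 0.10, beside 0.05 over the known entries tested. In none of the 6 did the ASO libraries lie wholly above or below the NoASO libraries, whereas the groups did not overlap in 8.32% of entries. Each of the 6 was also compared between groups by an exact two-sided permutation test of its mean log2 level, in which 4 against 4 libraries cannot go below p = 0.0286.

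**Figure D1:**
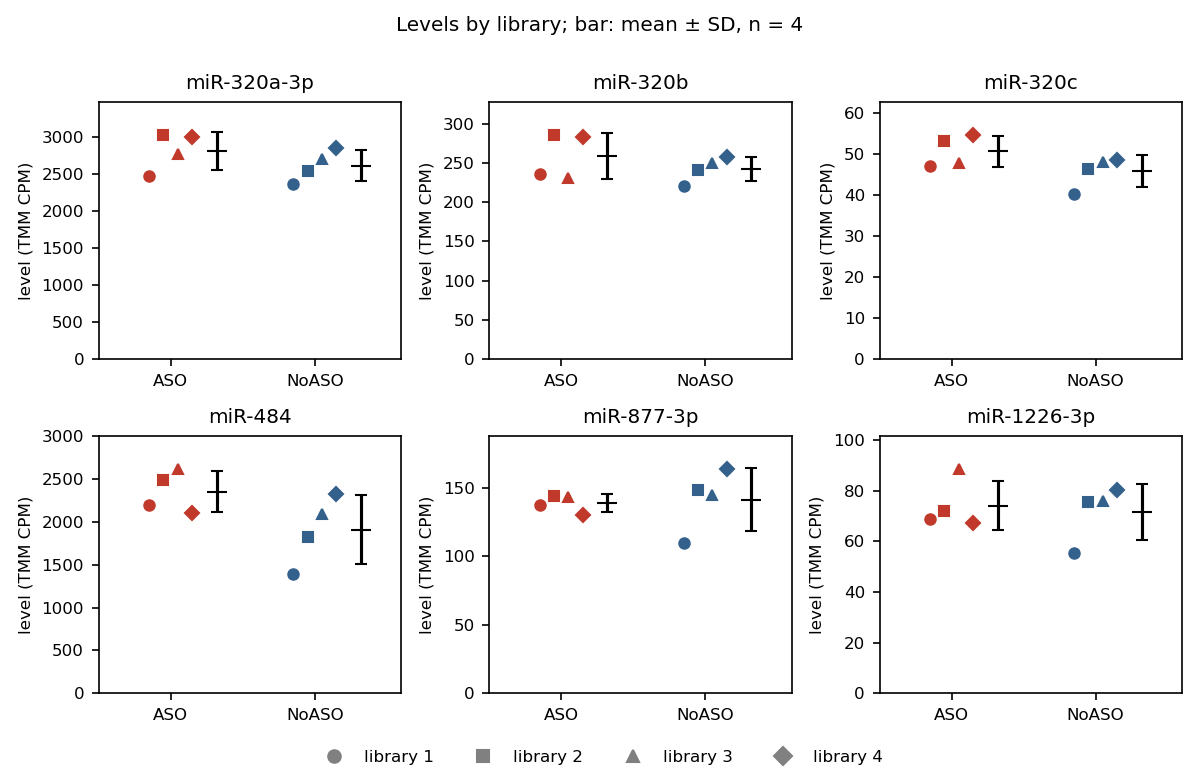
Level of the 6 members found in every library (vertical axes from 0, TMM-scaled CPM), with ASO libraries left of NoASO libraries, a marker shape for each library number, and the mean ± SD of n = 4 beside them. ASO and NoASO points overlap in every panel, and NoASO library 1 (circle) is the lowest point in each, at 1390 CPM for miR-484.

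miR-320a-3p is the most abundant member of the set. It stood at 2476, 3025, 2768 and 2995 CPM in ASO libraries 1 to 4, and at 2366, 2539, 2708 and 2846 CPM in NoASO libraries 1 to 4. The groups overlap, with ASO library 1 below 3 of the 4 NoASO libraries. The mean was 2816 ± 254 CPM with ASO and 2615 ± 208 CPM without (SD, n = 4 each), a log2 fold change of 0.11 (SE 0.09, 95% interval −0.09 to 0.31, adjusted p = 0.627, edgeR). As a fold this is 1.08, with an interval of 0.937 to 1.24, and the exact permutation test gave p = 0.286. Its lowest count, 22463, has a Wilson 95% interval of 2710 to 2790 CPM of the whole library total, narrower than the spread between libraries. PCR copies of a molecule are counted with it, so such an interval covers nothing beyond counting error.

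miR-320b had 235, 285, 231 and 283 CPM in ASO libraries 1 to 4, and 221, 241, 250 and 257 CPM in NoASO libraries 1 to 4. ASO libraries 2 and 4 were the highest of the 8, and ASO libraries 1 and 3 lay within the NoASO range. In edgeR this gave 0.09 on the log2 scale (95% interval −0.13 to 0.32, SE 0.10, adjusted p = 0.725), and the exact permutation p was 0.371. miR-320c had 46.9, 53.1, 47.8 and 54.5 CPM in ASO libraries 1 to 4, and 40.3, 46.3, 48.1 and 48.5 CPM in NoASO libraries 1 to 4. Again ASO libraries 2 and 4 were highest and NoASO library 1 lowest. In edgeR the log2 difference was 0.14 (95% interval −0.07 to 0.36, SE 0.09, adjusted p = 0.539), and the exact permutation p was 0.200.

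Within a library, miR-320b and miR-320c could be set against miR-320a-3p as a proportion, a measure that does not depend on how libraries are scaled. Such a proportion does depend on how reads were split among the miR-320 entries, which is uncertain. miR-320b had 9.50%, 9.43%, 8.35% and 9.45% as many counts as miR-320a-3p in ASO libraries 1 to 4, and 9.35%, 9.49%, 9.23% and 9.03% in NoASO libraries 1 to 4. The low value was that of ASO library 3. The mean log2 ratio differed by −0.02 between groups, −3.45 ± 0.09 with ASO and −3.43 ± 0.03 without (exact permutation test, two-sided, p = 0.943), and without ASO library 3 the difference turned to 0.03. miR-320c had 1.80% ± 0.07 as many counts as miR-320a-3p with ASO and 1.75% ± 0.06 without (SD, n = 4 each), a log2 difference of 0.04 (exact permutation p = 0.371). Leaving out ASO library 1 brought this difference to 0.01. These 2 ratios were the family tested, and none was computed for miR-320d and miR-320e, which were listed at 0 in 4 and 5 libraries.

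miR-320d was listed at 0 in 4 of the 8 libraries. It had 90, 0, 612 and 0 counts in ASO libraries 1 to 4, and 86, 51, 0 and 0 counts in NoASO libraries 1 to 4. That is 9.23, 0, 55.0 and 0 CPM with ASO, and 8.53, 5.45, 0 and 0 CPM without, so each group had 2 libraries listed at 0, and ASO library 3 stood alone. The fitted log2 fold change of 2.195 (SE 2.27, 95% interval −3.09 to 7.48, adjusted p = 0.733, edgeR) was −0.20 without that library and 3.17 without NoASO library 1. miR-320e did not pass the filter. It had 0, 44, 69 and 0 counts in ASO libraries and 0, 0, 24 and 0 in NoASO libraries, again highest in ASO library 3.

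The library with most miR-320d, ASO library 3, was the ASO library with least miR-320b, as the stacked bars of the paralogues show. Its 231 CPM of miR-320b was close to the 235 CPM of ASO library 1, which had 9.23 CPM of miR-320d. NoASO library 1 had the least miR-320b of all, at 221 CPM, with 8.53 CPM of miR-320d. Summed, miR-320b and miR-320d came to 244, 285, 286 and 283 CPM in ASO libraries 1 to 4, and to 230, 246, 250 and 257 CPM in NoASO libraries 1 to 4. With the sum, ASO library 3 lies beside ASO libraries 2 and 4, while ASO library 1 stays below them. Adding miR-320c and miR-320e gave 328 ± 24.4 CPM with ASO and 292 ± 15.8 CPM without (SD, n = 4 each), and fitting that sum in place of the separate entries, a choice made after the values were seen, gave a log2 fold change of 0.17 (adjusted p = 0.443, edgeR). Whether reads moved between these entries in counting was not tested.

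**Figure D2:**
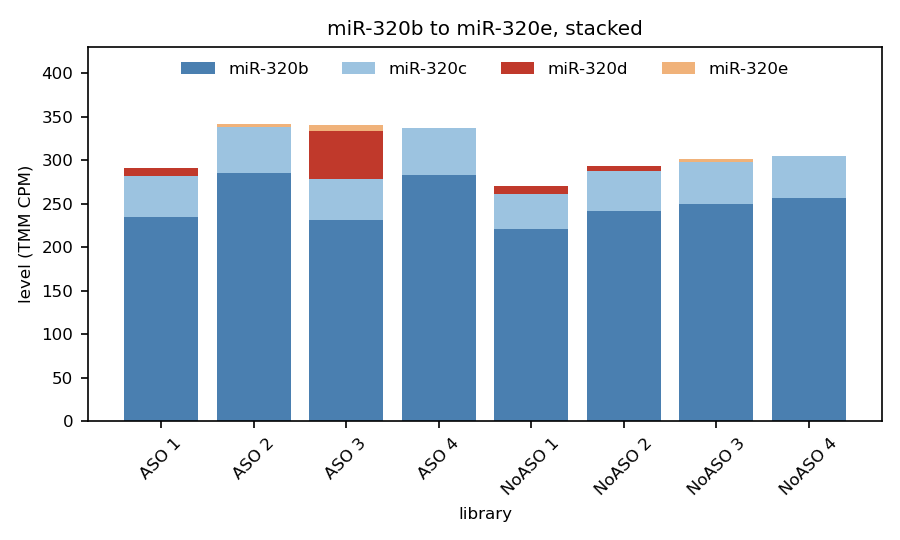
Stacked levels (TMM-scaled CPM, from 0) of miR-320b, miR-320c, miR-320d and miR-320e in ASO libraries 1 to 4 and then NoASO libraries 1 to 4. The miR-320d segment is 55.0 CPM in ASO library 3 and at most 9.23 CPM in any other. The miR-320b segment of ASO library 3 is the lowest of the ASO group, at 231 CPM beside 235 CPM in ASO library 1.

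miR-484, from the start of NDE1, varied most among the 6 members. It stood at 2193, 2485, 2609 and 2105 CPM in ASO libraries 1 to 4, and at 1390, 1819, 2088 and 2322 CPM in NoASO libraries 1 to 4. All ASO libraries lay above 3 NoASO libraries, and NoASO library 4 lay inside the ASO range. The mean was 2348 ± 238 CPM with ASO and 1905 ± 400 CPM without (SD, n = 4 each). The log2 fold change of 0.30 (SE 0.16, 95% interval −0.07 to 0.67) did not pass the threshold (adjusted p = 0.464, edgeR), and its p ranked 151 of the 745 entries, the smallest among the members. As a fold this is 1.23, with an interval of 0.953 to 1.59, and the exact permutation test gave p = 0.114. NoASO library 1 was the lowest, and without it the NoASO mean was 2077 ± 252 CPM and the log2 fold change 0.19.

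The mirtron microRNAs had the smallest fitted differences of the 6. miR-877-3p had 137.8, 143.94, 143.45 and 130.4 CPM in ASO libraries 1 to 4, and 109.6, 148.1, 144.66 and 163.5 CPM in NoASO libraries 1 to 4. Both its lowest and its highest library were NoASO. The means were 139 ± 6.32 CPM with ASO and 141 ± 22.7 CPM without (SD, n = 4 each), or −0.03 on the log2 scale (95% interval −0.31 to 0.26, SE 0.12, adjusted p = 0.966 in edgeR, exact permutation p = 0.886). miR-1226-3p had 68.9, 72.0, 88.3 and 67.1 CPM in ASO libraries 1 to 4, and 55.5, 75.5, 75.7 and 80.1 CPM in NoASO libraries 1 to 4. ASO library 3 was highest and NoASO library 1 lowest, with the rest between 67.1 and 80.1 CPM. The means were 74.1 ± 9.71 CPM with ASO and 71.7 ± 11.0 CPM without (SD, n = 4 each), or 0.05 on the log2 scale (95% interval −0.29 to 0.38, SE 0.14, adjusted p = 0.948 in edgeR, exact permutation p = 0.771). The sign of either value depends on single libraries: miR-877-3p turned to 0.05 without NoASO library 4 and was −0.12 without NoASO library 1, and miR-1226-3p turned to −0.05 without ASO library 3 and −0.04 without NoASO library 1. In fold terms the intervals run from 0.806 to 1.20 for miR-877-3p and from 0.820 to 1.30 for miR-1226-3p.

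To widen the mirtron view beyond 2 entries, RefSeq hairpins were compared with the annotated introns, a search chosen after values were seen. Of the 1562 hairpins searched, 23 fill an intron from end to end, and 7 entries of the table come from them. All 7 are 3p arms, and 6 of the 7 mature sequences end in AG. Introns end in AG, so a 3p arm that runs to the last base of its intron has this ending by the way it was chosen. Of the 471 tested known microRNAs, which include both arms, 11.7% end in AG. miR-877-3p and miR-1226-3p were the most abundant, with mean counts of 1441 and 749.6, followed by miR-1229-3p from MGAT4B at 43.6, miR-7108-3p from LMNB2 at 26.1, miR-3620-3p from ARF1 at 15.9, miR-1236-3p from NELFE at 10.6 and miR-6834-3p from PFDN6 at 0.875. Of these, 6 were tested and none was called. A fold above 1 was seen in 3 of the 6, with a median log2 fold change of 0.01. miR-1229-3p averaged 4.50 ± 0.96 CPM with ASO and 3.91 ± 0.31 CPM without (log2 fold change 0.20, SE 0.20, adjusted p = 0.714, edgeR). The lowest value was that of miR-3620-3p (−1.49, SE 1.82), which was listed at 0 in 4 of 8 libraries.

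The other lists hold microRNAs made around or through Drosha. The list of other mirtrons named by symbol had 2 tested entries, miR-1229-3p and miR-1236-3p (log2 fold change 0.28, SE 0.45, adjusted p = 0.842). Of the microRNAs that come from small nucleolar RNAs, miR-664a-3p averaged 28.2 ± 2.50 CPM with ASO and 23.6 ± 3.66 CPM without (0.26, SE 0.14, adjusted p = 0.464), and miR-664b-3p had 3.14 ± 0.74 CPM with ASO and 2.34 ± 0.79 CPM without (0.43, SE 0.34, adjusted p = 0.626). Among Drosha-cut hairpins in introns of coding genes, the ones most like mirtrons in position, 10 of 11 entries were tested, 7 had a fold above 1 and none was called. Their median log2 fold change was 0.33 and the range −0.15 to 0.54. miR-103a-1-3p and miR-103a-2-3p hold nearly the same counts, and with the more abundant copy alone 6 of 9 had a fold above 1, with a median of 0.31. Their most abundant entries were miR-26a-5p (0.11, SE 0.05, adjusted p = 0.445), miR-25-3p (−0.02, SE 0.06, adjusted p = 0.947) and miR-103a-2-3p (0.35, SE 0.20, adjusted p = 0.487). In the list named for Drosha-cut hairpins of long noncoding transcripts, which holds the let-7 and miR-17-92 microRNAs, 19 of 21 entries were tested. No host genes are given for this list, which was set by name, so some of its hairpins may lie in coding genes. Of the 19 tested, 16 had a fold above 1 and none was called, with a median of 0.09. With the most abundant copy of miR-92a alone these were 14 of 17, with a median of 0.07. The highest levels there were those of the miR-92a entries, which share reads, at log2 fold changes of 0.07 (miR-92a-1-3p, adjusted p = 0.716) and 0.09 (miR-92a-3p and the identical counts of miR-92a-2-3p, adjusted p = 0.638). The range of −0.03 to 0.30 over the 6 members found in every library lies within that of either Drosha-cut list, and no difference between the lists was tested.

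**Figure D3:**
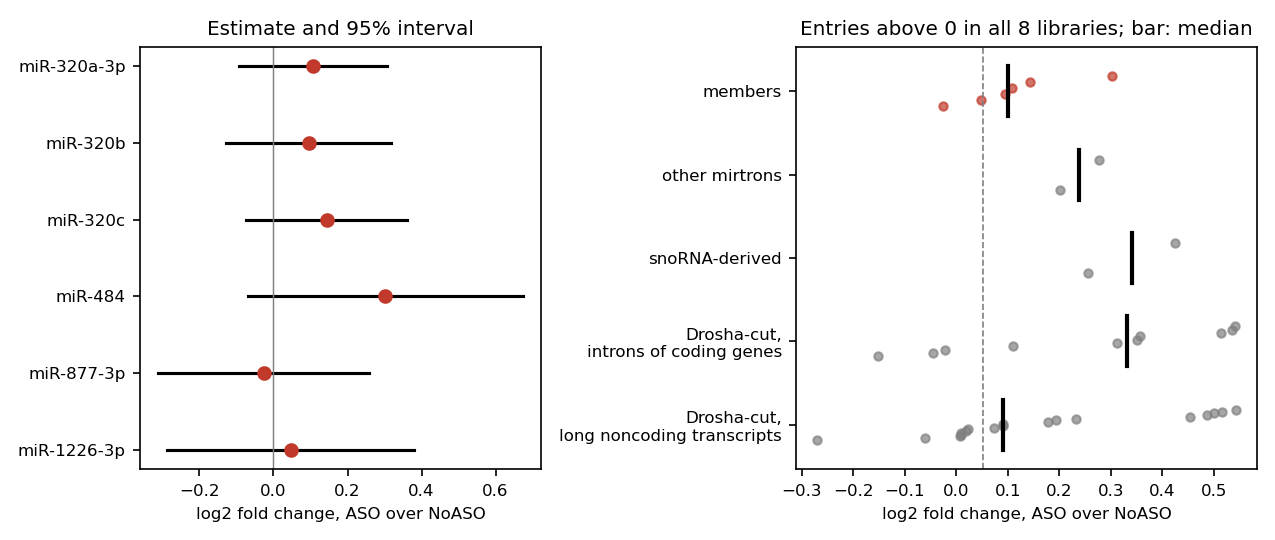
Left, log2 fold change of ASO over NoASO libraries with its 95% interval for the 6 members found in every library, whose intervals all span 0. Right, log2 fold changes of members and of the 4 contrast lists for entries above 0 in all 8 libraries, with the list's median as a bar and the median of all tested known microRNAs (0.05) as a dashed line, where the members' median is 0.10.

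The members also differed in how much they varied between libraries. The SD of the log2 level over the 8 libraries was 0.13 for miR-320a-3p, miR-320b and miR-320c, 0.17 for miR-877-3p, 0.20 for miR-1226-3p and 0.29 for miR-484. At least as large an SD was found in 85.2% of tested known entries for miR-320a-3p and in 42.1% for miR-484. These shares are not matched for level, as the tested entries include some with few counts or listed at 0 in some libraries. NoASO library 1 was the lowest of the 8 for all 6 members, as it was for 32.7% of the 539 tested known entries. It was also lowest for 7 of the 10 tested entries of the Drosha-cut intronic list and 13 of the 19 of the long noncoding list. With copies that share reads counted as 1, these were 6 of 9 and 11 of 17. Without it, the log2 fold change was 0.08 for miR-320a-3p, 0.07 for miR-320b and 0.10 for miR-320c, and none of the members was called.

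Across the 8 libraries, which share a cell line, likeness between members is given as a description, with and without NoASO library 1. Pearson's r of log2 levels was 0.89 between miR-320a-3p and miR-320b and 0.91 between miR-320a-3p and miR-320c (Spearman's rho 0.86 and 0.93), and 0.84 and 0.88 without NoASO library 1. It was 0.85 between the mirtron microRNAs miR-877-3p and miR-1226-3p (rho 0.74), and 0.59 without that library. miR-320a-3p with miR-484 had 0.72 (rho 0.64), and 0.49 without it. miR-320a-3p with miR-877-3p had 0.48 (rho 0.29), and −0.06 without it, and miR-320b with miR-1226-3p had 0.13 (rho 0.05), and −0.53 without it. miR-484 with miR-1226-3p had 0.80 (rho 0.57), and 0.44 without it, and miR-484 with miR-877-3p had 0.72 (rho 0.21), and 0.10 without it. Of the pairs printed, those within the miR-320 family moved least on leaving out NoASO library 1, and the mirtron pair and the pairs with miR-484 fell. The split of reads among the miR-320 entries is uncertain, and its part in their likeness was not tested.

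The log2 levels of miR-484 over the 8 libraries were compared with those of 532 other tested known entries, and the 5 most alike are given. In order they were miR-17-5p (r 0.99, rho 0.95), miR-93-5p (0.99, 0.98), miR-374b-5p (0.99, 0.98), miR-577 (0.99, 0.98) and miR-191-5p (0.99, 0.90), and without NoASO library 1 their r was 0.98 to 0.99. miR-17-5p, miR-93-5p and miR-191-5p are on the Drosha-cut lists, which hold 10 and 19 tested entries. miR-374b-5p and miR-577 are on none of the lists, so list membership does not tell how they are cut. miR-17-5p, of the proliferation-linked miR-17-92 cluster, had a wider range than miR-484. It stood at 2873, 3910, 3904 and 2697 CPM in ASO libraries 1 to 4, and at 1413, 2254, 2756 and 3135 CPM in NoASO libraries 1 to 4. miR-484 had 76.3%, 63.6%, 66.8% and 78.0% as many counts as miR-17-5p in ASO libraries 1 to 4, and 98.3%, 80.7%, 75.8% and 74.1% in NoASO libraries 1 to 4. The share was highest in NoASO libraries 1 and 2, and the groups overlap.

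The entries most like miR-320a-3p were others. They were miR-200c-3p, an epithelial microRNA (r 0.94, rho 0.93), miR-935 (0.92, 0.90) and the 3 entries of miR-24, miR-24-1-3p, miR-24-2-3p and miR-24-3p (0.89, rho 0.95 for each), of which the last 2 hold identical counts. Without NoASO library 1 these r were 0.94, 0.87 and 0.85. miR-320a-3p had 1.13, 1.22, 1.06 and 1.42 times the counts of miR-484 in ASO libraries 1 to 4, and 1.70, 1.40, 1.30 and 1.23 times in NoASO libraries 1 to 4. NoASO library 1 had the highest ratio, ASO library 4 the next, and the groups overlap.

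**Figure D4:**
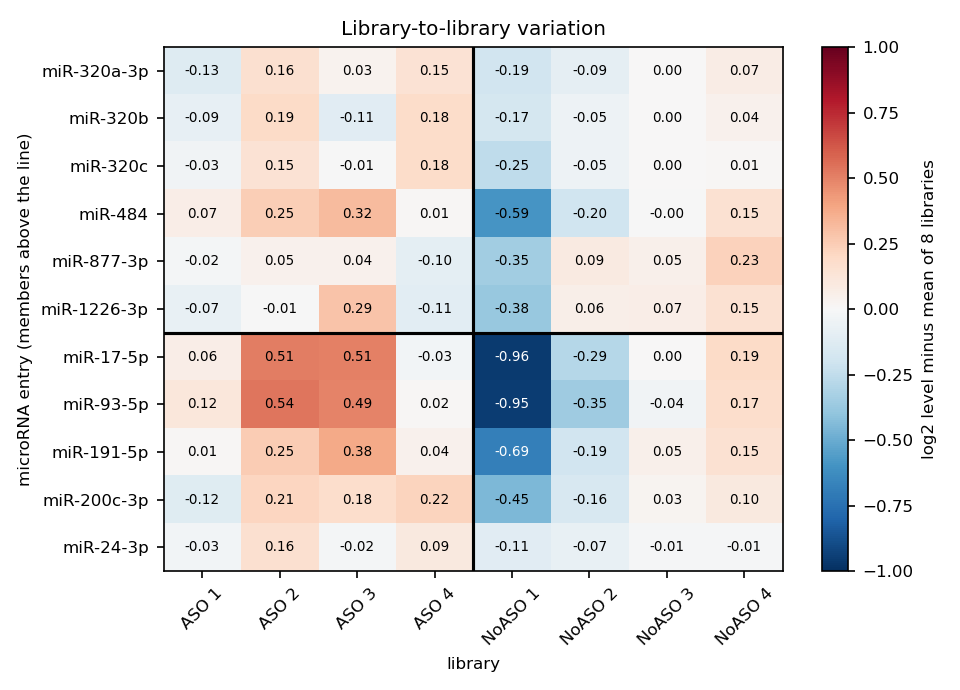
Log2 level minus the mean of the 8 libraries for the 6 members (above the line) and for entries named as most like miR-484 or miR-320a-3p (below it), with ASO libraries left of NoASO libraries and the value printed in each cell. In NoASO library 1 miR-484 is at −0.59 and miR-17-5p at −0.96, against −0.19 for miR-320a-3p.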

How the data were processed

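Small RNA from 8 HEK293 samples was made into libraries with an NEB kit, per the labels' protocols, and samples were grouped by title. The authors deposited a table with whole-number counts per entry, not normalized, and 8 columns headed TPM that on testing were CPM, within 0.223 of values computed here. Reads were converted with bcl2fastq 2.20 and trimmed with Trimmomatic 0.30, with GRCh38 as build and edgeR 3.4.6 in use, per the submitters' processing notes. Which aligner, counter and annotation made the counts is not given in the sources used here.

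Counts of entries above 0 in at least 4 libraries with a mean of at least 10 (745 of 2867) were fitted with edgeR 4.0.16 (TMM, quasi-likelihood, group only, two-sided, Benjamini-Hochberg over all 745, threshold 0.05), and the fit was tested on simulated data. SE is the size of the change over the square root of F. Alternatives were other scaling, filters, known entries only, DESeq2 1.42.0, a replicate block and leaving out each library. Permutation tests used scipy 1.17.1. Likeness used log2(CPM + 1). Sequences came from RefSeq (GRCh38.p14) and gene structures from GENCODE 29. Libraries are not stated to be separate cultures, so p-values measure spread between libraries, which may be technical. Total counts were 8168828 to 11677123, and counting error was small beside the spread between libraries for miR-320a-3p and miR-484. It was larger relative to level for members with fewer counts, among them miR-320d and miR-320e. For miR-320c, the Wilson interval of the lowest count, 399, was 44.3 to 53.9 CPM of the whole library total. The miR-320c levels of the libraries ran from 40.3 to 54.5 CPM (TMM-scaled), so counting error was not small there. Members and lists were chosen with earlier results of these data known. Named were all members, the 5 entries most like miR-320a-3p and miR-484, the 3 most abundant of each contrast list and entries sharing a seed. The intron search and its entries, likeness without NoASO library 1 and lists with locus copies collapsed were added after values were seen. So were miR-122-5p, miR-142-3p, miR-145-5p, miR-150-5p, the marker names without an entry, miR-19a-3p, the miR-103a-3p zeros and the miR-103a-1-3p counts beside them.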

Additional observations from a re-analysis of the deposited data

Results flagged for a closer look

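In 16 groups of 4 libraries, the gap between an extreme library and its nearest neighbour was set against the group's range, and chance passes about 1 group in 20 where values are not tied. The miR-320d level in ASO libraries passed, with a gap of 0.832 of the range, since ASO library 3 had 55.0 CPM and the next 9.23 CPM. ASO libraries 2 and 4 were both listed at 0, so the values are tied and the rate of 1 group in 20 does not apply. A listed 0 is not always a low level, so the range is itself uncertain. No conclusion on an outlying library is drawn from this pass. The miR-320e level in NoASO libraries gave 1.0, but with 24 counts in NoASO library 3 and the others listed at 0 that outcome was fixed for any count, and it is no sign of an outlying library.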

How the results depend on the processing

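No member was called in either direction under any of the 15 planned settings, and all but 4 of the alternative log2 fold changes for members kept direction and side of the threshold. The 4 that turned were miR-1226-3p without ASO library 3 (−0.049) and without NoASO library 1 (−0.044), miR-320d without ASO library 3 (−0.20) and miR-877-3p without NoASO library 4 (0.050). The cause was not tested. On leaving out a library, values ran from −0.049 to 0.105 for miR-1226-3p, −0.116 to 0.050 for miR-877-3p, −0.20 to 3.17 for miR-320d, 0.19 to 0.41 for miR-484, 0.066 to 0.164 for miR-320a-3p, 0.038 (without ASO library 4) to 0.144 (without ASO library 3) for miR-320b and 0.096 to 0.178 for miR-320c. The miR-320b to miR-320a-3p difference ran from −0.033 to 0.029 on leaving out a library, turning without ASO library 3, and that of miR-320c from 0.013 to 0.058. Over all entries, 0 were called higher and 1 lower. Those counts were 0 and 0 with no filter, 1 and 4 with a mean count of at least 100, 1 and 3 with known microRNAs only, 9 and 12 with DESeq2, and 0 to 3 and 0 to 2 on leaving out a library (3 and 2 without NoASO library 4, 0 and 0 without NoASO library 2). Under a replicate block on library number they were 0 and 0, and miR-320d had 0.22 in place of 2.195. Deviations of same-numbered libraries had correlations of 0.01, 0.03, 0.30 and −0.04, so the numbers were not taken as pairs. miR-320d and miR-320e are limited most, being listed at 0 in 4 and 5 libraries. For the 6 members found in every library, the upper ends of the 95% intervals lie at folds of 1.20 (miR-877-3p) to 1.59 (miR-484).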
